A study of Mus musculus with 19 samples.

Results

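Myosin-binding proteins H and C were followed in a fast hind leg muscle of the mouse, the extensor digitorum longus (EDL), through all probe sets annotated to only one of the genes Mybph, Mybpc1, Mybpc2 and Mybpc3. This gave 6 of the 45101 probe sets on the array, of which 34945 had a single gene: 1 for Mybph (1419487_at), 3 for Mybpc1, 1 for Mybpc2 (1455736_at) and 1 for Mybpc3 (1418551_at). All 6 passed the filter on low signal. The genes were chosen by symbol with results of these arrays already known, in particular the high Mybph signal in HSALR samples, so differences of the 4 genes between HSALR and wild type are given as a description. How many of them a model over all probe sets calls is counted once, and nothing is supported with it. Samples came from FVB mice aged 19 weeks, 9 of them wild type and 10 transgenic for HSALR, line 20 b. HSALR animals carry a human skeletal actin gene with a long CTG repeat, expressed from the actin promoter in skeletal muscle, and are used as a model of myotonic dystrophy. All came from 1 transgenic line. Each sample was measured on 1 Affymetrix array, and nothing in the labels ties a sample to an animal of its own. Each p-value therefore rests on sample-to-sample spread that may be technical in part.

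Thick filaments of striated muscle carry myosin-binding protein C, a rod-like chain of immunoglobulin and fibronectin domains that is anchored on the myosin backbone and reaches towards the thin filament, where it tunes how many myosin heads can act. Mammals have a slow skeletal (Mybpc1), a fast skeletal (Mybpc2) and a cardiac (Mybpc3) gene, and the slow gene is also used in fast fibres. Mybph encodes myosin-binding protein H, a shorter relative that shares the myosin-anchoring end of the C proteins and lacks most of the part that reaches out.

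The arrays differed in overall brightness, with median signals of 39.7 to 71.9, and the median log2 fold over all tested probe sets was 0.04 as deposited and -0.01 after quantile normalization. The 13 fast fibre genes had a summed signal of 151266 to 171177 in wild type and 138370 to 170634 in HSALR. The 10 slow fibre genes varied much more, from 4285 to 34627 in wild type and from 4595 to 20574 in HSALR, and the groups overlapped. HSALR replicates 9 and 10 stood apart in 9 macrophage genes, with summed signals of 18307 and 20856 against at most 9235 in the other HSALR samples and 6677 in wild type. They were also the highest HSALR samples in 8 fibroblast genes (56018 and 58566 against at most 35674), 2 satellite cell genes (625 and 726 against 341) and 3 Schwann cell and nerve genes (4875 and 3297 against 2431). Mean log2 ratios of 3' to 5' control probe sets, a measure of RNA quality and labelling, ran from -0.15 to 0.02 in wild type and from -0.167 to -0.035 in HSALR.

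Mybph was the member that separated the groups. Its deposited signal was lowest at 59.4, median 170 and highest at 438 in wild type, and lowest at 1105, median 1657 and highest at 5145 in HSALR. The groups did not overlap: no HSALR sample was as low as any wild-type sample, and the lowest HSALR sample was 2.52-fold above the highest wild-type sample, replicate 6. A full separation in this direction was seen in 0.360% of the 22519 tested probe sets, and since the gene was chosen on this contrast nothing is read from that share. The mean log2(signal + 16) of the 9 wild-type samples was 7.41 ± 0.82 (SD, n = 9), and that of the HSALR samples was 10.84 ± 0.70 (SD, n = 10). The log2 fold was 3.43 ± 0.31 (SE), or 10.8-fold. The added 16 understates the change of dim genes, and the ratio of the mean signals was 11.4. In bulk muscle, more cells with the transcript and more transcript per cell cannot be told apart.

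**Figure D1:**
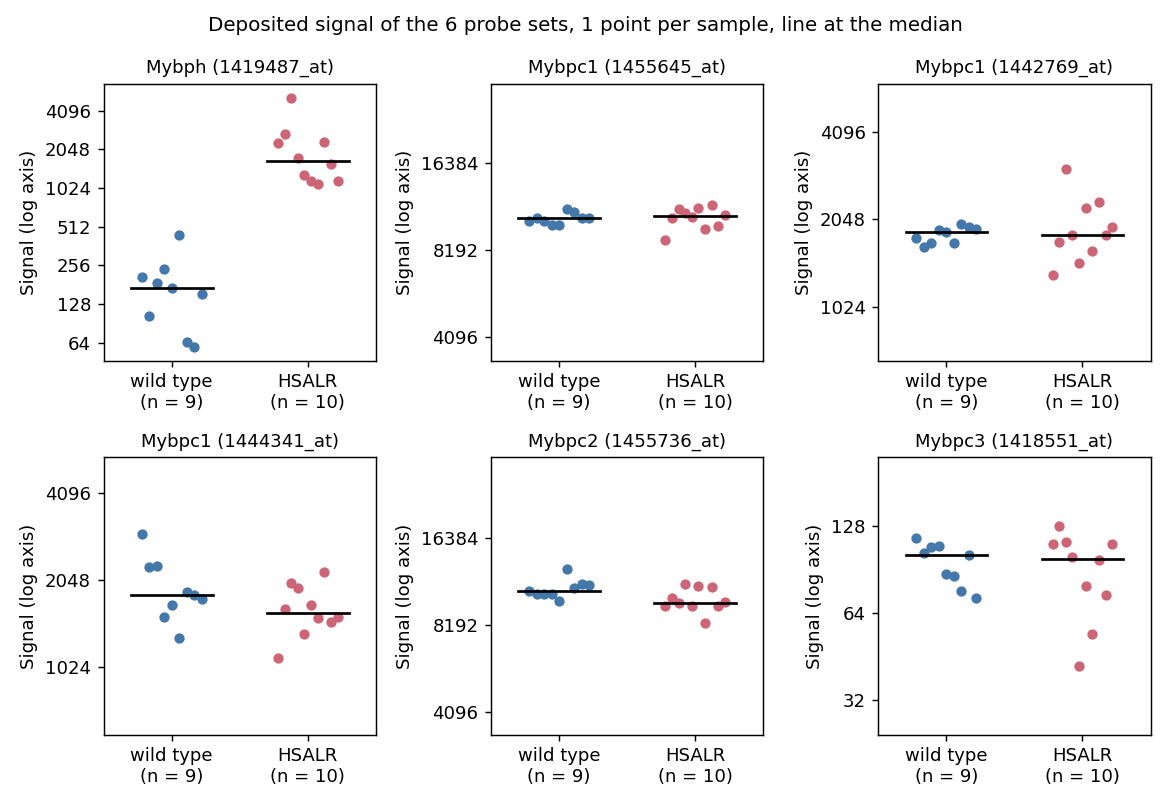
Deposited signal (y axis, log scale) of the 6 probe sets in each of the 9 wild-type and 10 HSALR samples, 1 point per sample, with a line at the group median. The Mybph panel spans a wider range than the others, and only there are the groups apart, with medians of 170 and 1657.

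Mybph also varied widely within each group. Wild-type samples spanned 7.37-fold, from replicate 8 to replicate 6, and HSALR samples 4.66-fold, from replicate 7 to replicate 3. After quantile normalization its SD on the log2 scale was 0.79 in wild type, above that of 99.4% of tested probe sets, and 0.69 in HSALR, above that of 97.4%. The median SD over all tested probe sets was 0.19 in wild type and 0.24 in HSALR. Wild-type replicate 6 read 438 and the next highest, replicate 4, read 240. In HSALR, replicates 3, 2, 8 and 1 were the highest, with signals of 5145, 2694, 2313 and 2285. HSALR replicates 9 and 10, which stood apart in macrophage genes, read 1579 and 1158, within the range of the other 8, and without them the log2 fold was 3.54. With the 3' to 5' ratio as a covariate it was also 3.54.

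The bases just before the gene are shown for Mybph, the member with the large difference, and for Mybpc2, the fast skeletal member with a small one, so that the 2 regulatory regions can be read side by side. They are from RefSeq, build GRCm38.p6, 5' to 3' on the strand of the gene, and end where the RefSeq gene model begins. Mybph lies on the plus strand at chr1:134193198-134193417 and Mybpc2 on the minus strand at chr7:44524716-44524919. Capitals mark E-boxes (CANNTG, the letters recognised by myogenic factors such as myogenin) and TATAA on either strand.
Mybph: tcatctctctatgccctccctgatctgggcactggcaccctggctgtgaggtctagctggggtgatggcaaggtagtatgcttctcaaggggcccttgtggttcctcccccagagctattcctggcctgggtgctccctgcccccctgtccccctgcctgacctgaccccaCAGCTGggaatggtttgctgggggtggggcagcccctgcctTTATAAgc
Mybpc2: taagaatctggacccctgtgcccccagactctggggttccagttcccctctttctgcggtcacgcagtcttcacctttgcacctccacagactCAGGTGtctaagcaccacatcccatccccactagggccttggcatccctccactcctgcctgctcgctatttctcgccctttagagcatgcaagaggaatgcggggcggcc
The Mybph stretch held 1 E-box, of the form CAGCTG, and a TATAA shortly before the gene model, in letters that read the same on both strands. The Mybpc2 stretch held 1 E-box of another form and no TATAA.

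Motifs were counted on both strands of the whole promoter window, 250 bases before to 50 after a start, of each of the 4 members, all of which matched an entry of this table. CANNTG was found in the windows of Mybph, Mybpc1, Mybpc2 and Mybpc3, 1, 3, 2 and 3 times, and in 72.3% of all 32851 windows. CAGCTG, which is also counted under CANNTG, was found 1 time each in Mybph, Mybpc1 and Mybpc3, and in 16.3% of all windows. TATAA was present in Mybph alone among the 4 and in 24.9% of all windows. A MEF2 site, for another class of muscle transcription factors, was found in Mybpc3 alone among the 4 and in 3.19% of all windows, and a CArG box for the serum response factor in none of the 4 and in 1.63%. These matches describe letters and are not shown to be bound sites.

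The slow skeletal gene Mybpc1 differed little between the groups, at each of its probe sets. The brightest, 1455645_at, read 9995 to 11298 in wild type, median 10522, and 8874 to 11750 in HSALR, median 10722. The log2 fold of this probe set was 0.01 ± 0.07 (SE, n = 10 against 9), with 3 HSALR samples above and 3 below all wild-type samples. The second, 1442769_at, read 1647 to 1972 in wild type, median 1847, and 1316 to 3038 in HSALR, median 1812, a log2 fold of 0.05 ± 0.12. Here the HSALR samples were the more spread, with 3 above and 3 below the narrow wild-type range, and replicate 3, also the highest for Mybph, was the highest. Both folds were negative after quantile normalization (-0.02 and -0.01) and their sign is not read.

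The third Mybpc1 probe set, 1444341_at, was lower in HSALR on average. It read 1297 to 2939 in wild type, median 1816, and 1108 to 2187 in HSALR, median 1579, a log2 fold of -0.23 ± 0.14. Only 1 HSALR sample, replicate 1, lay below all wild-type samples, so the groups largely overlapped. The fold ranged from -0.30 after quantile normalization to -0.15 without wild-type replicate 1, the brightest sample at this probe set. The 3 probe sets thus read log2 folds between -0.23 and 0.05.

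Mybpc2, the fast skeletal gene, was slightly lower in HSALR. It read 9900 to 12769 in wild type, median 10740, and 8318 to 11376 in HSALR, median 9785. The log2 fold was -0.13 ± 0.08, or 1.09-fold lower, and 6 of 10 HSALR samples lay below every wild-type sample while none lay above them all. Its sign was negative under all 3 scalings, with -0.16 after quantile normalization and -0.18 with median-centred arrays. The probe set and the brightest one of Mybpc1 stood at 59.5% to 74.4% of the highest signal of their array, where changes can be compressed, so the small folds of Mybpc2 and of that Mybpc1 probe set are not read as absence of change.

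Mybpc3, the cardiac gene, gave a dim signal in both groups. It read 72.3 to 116 in wild type, median 101, and 41.9 to 128 in HSALR, median 98.5, a log2 fold of -0.10 ± 0.15. The lowest sample was HSALR replicate 5, which also had the dimmest array, and the groups overlapped, with 1 HSALR sample above and 2 below all wild-type samples. Of 7 heart muscle genes only Myh6 and Tnnt2 passed the filter on low signal, and the troponin gene Tnni3, the myosin light chain gene Myl7, the natriuretic peptide genes Nppa and Nppb and the calcium release channel gene Ryr2 did not. Neither of the 2 passed in limma, against 3.11% of all genes called higher and 2.31% lower. Of the 2, 1, lower in HSALR, had an unadjusted p under 0.05, and the share of all genes with such a p was not counted. The summed signal of the 2 was 204 to 447 in wild type and 154 to 372 in HSALR. The values used here carry no detection calls, so it is not known whether the Mybpc3 signal lies above background.

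Counted together, 1 of the 6 member probe sets was called higher in HSALR and 0 lower in limma at an adjusted p under 0.05, against 2.86% called higher and 2.20% called lower of all tested probe sets. The one was Mybph. After quantile normalization Mybpc2 was called lower as well, where 1886 of all 22519 tested probe sets and 8.51% of genes were called lower. The median log2 fold of the 6 was -0.05, beside 0.04 over all tested probe sets. The members were chosen on this contrast, so the counts support nothing about them.

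**Figure D2:**
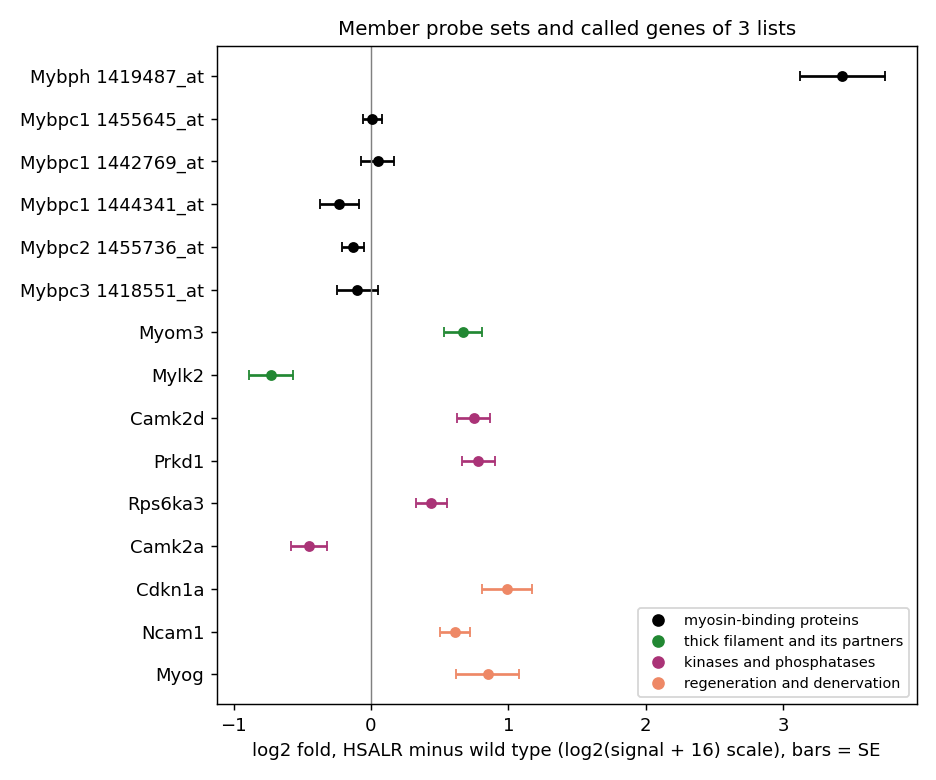
Log2 fold of HSALR against wild type (x axis, on the log2(signal + 16) scale, bars are SE, n = 10 against 9) for the 6 member probe sets and for the genes called by limma in 3 lists. Mybph lies at 3.43, the other members lie between -0.23 and 0.05, and the called list genes lie between -0.73 and 0.99.

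The spread between samples of 1 group does not use the contrast that chose the genes, so relations among the members were tested there. In quantile-normalized log2 values, the 6 pairs of members had Pearson correlations from -0.58 to 0.19 in wild type and from -0.26 to 0.57 in HSALR. The strongest were Mybph with Mybpc1 in wild type (r = -0.58, exact permutation p = 0.104, rho = -0.60, exact p = 0.0952, n = 9) and Mybph with Mybpc3 in HSALR (r = 0.57, permutation p = 0.0835, rho = 0.62, permutation p = 0.0615, n = 10). Without the 2 samples farthest from the median of Mybpc1 or Mybpc3 these were -0.29 and 0.64. The relation of Mybph with Mybpc1 depended on the scaling, since r was -0.03 both as deposited and with median-centred arrays. That of Mybph with Mybpc3 was 0.61 and 0.47 under these. In all 36 relations were tested, each member also against the mean of 3 gene lists, and none passed after Benjamini-Hochberg adjustment in these permutation tests (lowest adjusted p = 0.479), with 1 Pearson and 1 Spearman test at an unadjusted p under 0.05. The Spearman test was that of Mybpc2 with the mean of the macrophage genes in HSALR (rho = -0.68, permutation p = 0.0354, adjusted p = 0.779, r = -0.59, permutation p = 0.0758, n = 10). Without HSALR replicates 9 and 10 its r was -0.45 (exact permutation p = 0.266).

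The Pearson test was that of Mybph with the mean of 14 regeneration and denervation genes in HSALR. Pearson's r was 0.75 (permutation p = 0.0133, adjusted p = 0.479, n = 10) and Spearman's rho was 0.54 (permutation p = 0.115, adjusted p = 0.779). It rested on HSALR replicates 3 and 6, the samples farthest from the median of the list mean, without which r was 0.40 (exact permutation p = 0.335). It was also smaller under other scalings, with r = 0.58 as deposited and 0.41 with median-centred arrays. Replicate 3 had both the highest Mybph and the highest list mean. In wild type r was -0.03 (exact permutation p = 0.929, n = 9), rho was -0.18 (exact p = 0.644), and without replicates 1 and 7 r was -0.73 (exact permutation p = 0.0563). Whether the 2 groups differ in this relation was not tested.

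**Figure D3:**
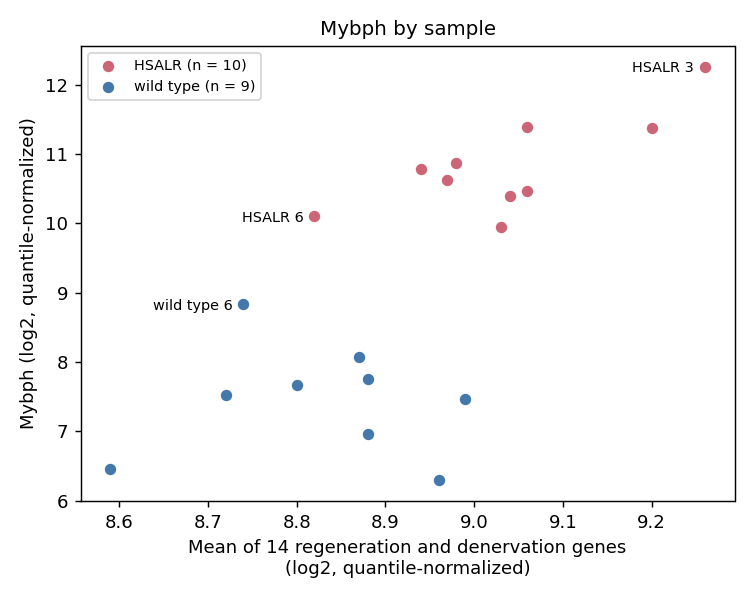
Mybph (y axis) against the mean of 14 regeneration and denervation genes (x axis), both as quantile-normalized log2 signal, 1 point per sample. HSALR replicate 3 is the highest on both axes, and r was 0.75 in the 10 HSALR and -0.03 in the 9 wild-type samples.

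No relation of Mybpc1 to the slow fibre genes was detected. Across the wild-type samples the mean of the 10 slow fibre genes ran from 8.52 to 11.54 on the log2 scale, while the brightest Mybpc1 probe set stayed between 13.33 and 13.44. Pearson's r was -0.28 (exact permutation p = 0.453, n = 9) and rho was -0.12 (exact p = 0.766), and without replicates 1 and 7 r was 0.07. In HSALR r was 0.17 (permutation p = 0.646, n = 10) and rho was 0.07 (permutation p = 0.842), and without replicates 4 and 9 r was 0.06. With median-centred arrays r was 0.44 in wild type and 0.54 in HSALR (permutation tests, adjusted p = 0.611 and 0.550). This probe set had an SD of 0.03 in wild type, with only 0.195% of tested probe sets lower, and it lies near the top of the array's range, as given above.

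**Figure D4:**
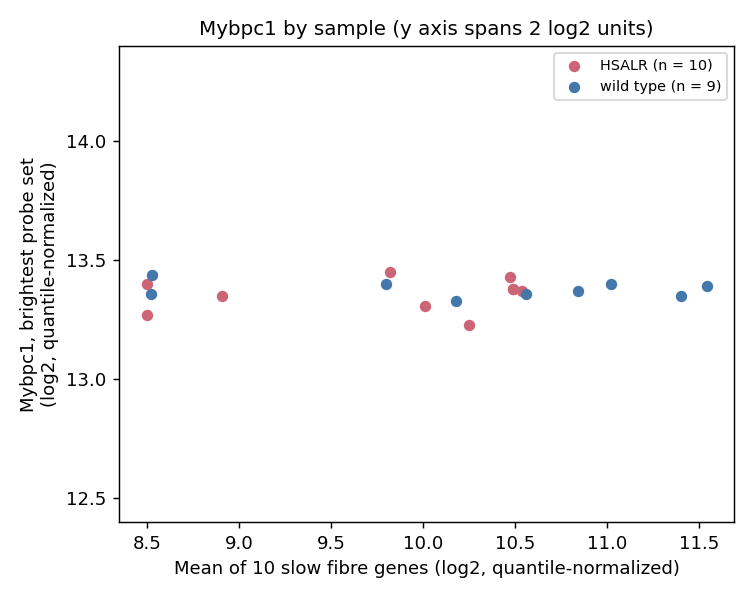
The brightest Mybpc1 probe set (y axis) against the mean of 10 slow fibre genes (x axis), both as quantile-normalized log2 signal, 1 point per sample, 9 wild-type and 10 HSALR samples. The slow fibre mean runs from 8.50 to 11.54, while Mybpc1 stays between 13.23 and 13.45.

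The genes whose pattern was most like that of each member were found from group-centred, quantile-normalized log2 values over all 19 samples, among 11533 genes. All samples share their array with both genes, and with this many genes high values arise at the top of the order, so these are descriptions. For Mybph they were Slc7a8, an amino acid transporter (r = 0.79), Abcc5, a membrane transporter (0.77), Magt1 (0.76), Hcrt, the hypocretin precursor (0.75), and Th, tyrosine hydroxylase (0.74). Within wild type and within HSALR alone, r with Slc7a8 was 0.79 and 0.79. With the scaling as deposited Th ranked 1 and Slc7a8 ranked 2, and Magt1 ranked 25.

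For Mybpc2 the nearest genes included Myoz3, a protein of the Z-disc of fast fibres, and Obsl1, a sarcomeric relative of obscurin, both with r = 0.84, then Tbc1d10c and Rfk (0.82 each) and Napb (0.81). Myoz3 had r = 0.82 in wild type and 0.85 in HSALR, and Obsl1 0.41 and 0.92. For Mybpc1 they were Eif2ak1 (0.81), Yae1d1 (0.80), Ccnk and Acsl6 (0.78 each) and Asnsd1 (0.77). These depended on the scaling to unlike degrees, since with values as deposited their ranks were 1886, 1874, 1091, 11 and 67. For Mybpc3 they were Egfr (0.82), Efna3 (0.81), Pip4p1 (0.79), Actl7b (0.78) and Disp1 (0.75), and their ranks as deposited were 18, 1, 2, 3 and 4.

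The genes that work with these proteins were read from lists. Of 26 thick filament genes and partners, 23 were measured, and 1 rose and 1 fell in limma at an adjusted p under 0.05, against 3.11% and 2.31% of all 11533 genes. Myom3, a myomesin of the M-band, rose (log2 fold 0.67 ± 0.14, limma adjusted p = 0.00593), and 9 of 10 HSALR samples exceeded the wild-type maximum. Mylk2, the kinase of the skeletal myosin regulatory light chain, fell (log2 fold -0.73 ± 0.16, limma adjusted p = 0.0098), with 9 of 10 below. The median log2 fold of the list was 0.01, beside 0.05 over all genes tested. After quantile normalization 1 rose and 4 fell, against 6.96% and 8.51% of all genes. In the 9 measured immunoglobulin and fibronectin domain proteins of the sarcomere, relatives of the C proteins in build, 1 rose and 0 fell. The shares of all genes were 3.11% and 2.31%. The one was Myom3, the same call as above, since the lists share genes. After quantile normalization Myom1, also in both lists, fell as well, against 8.51% of all genes.

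Kinases and phosphatases that act on myosin-binding protein C, mostly known from the cardiac protein, were counted in the same way. Of 16 measured, 3 rose and 1 fell, against 3.11% and 2.31% of all genes, and the median log2 fold was 0.08 beside 0.05 over all genes. Camk2d, a calcium/calmodulin-dependent kinase, rose by 0.75 ± 0.12 on the log2 scale (limma adjusted p = 0.000244), and Prkd1, protein kinase D, by 0.78 ± 0.12 (limma adjusted p = 0.000249). All 10 HSALR samples exceeded the wild-type maximum for Prkd1, a separation seen in this direction in 0.360% of tested probe sets. Prkd1 was named for its call in the same contrast, so nothing more is read from this. Rps6ka3, a ribosomal S6 kinase, rose (0.44 ± 0.11, limma adjusted p = 0.0173) and Camk2a, a relative of Camk2d, fell (-0.45 ± 0.13, limma adjusted p = 0.0394). Without HSALR replicates 9 and 10 the calls of Rps6ka3 (adjusted p = 0.065) and Camk2a (0.0829) were lost. That of Camk2a was also lost without any one of wild-type replicates 1, 2, 3, 5, 6 and 8 or HSALR replicates 1, 2, 3, 7, 9 and 10 (limma adjusted p = 0.0507 to 0.0785). After quantile normalization 5 rose and 2 fell, against 6.96% and 8.51% of all genes.

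Of 18 regeneration and denervation genes, 14 were measured, and 3 rose and 0 fell, against 3.11% and 2.31% of all genes, with a median log2 fold of 0.13 beside 0.05 over all genes. These were Cdkn1a, a cell cycle inhibitor (0.99 ± 0.18, limma adjusted p = 0.00141), Ncam1, an adhesion molecule of regenerating and denervated fibres (0.61 ± 0.11, limma adjusted p = 0.002), and Myog, the myogenic factor myogenin. The log2 fold of Myh3, the embryonic myosin heavy chain, was 0.08 ± 0.17 (limma adjusted p = 0.836), and that of Myh8, the perinatal one, was 0.61 ± 0.35 (limma adjusted p = 0.342). Myf5, Chrnd, Chrng and Mymk did not pass the filter on low signal. The summed signal of this list was 12976 to 15571 in wild type and 12837 to 22389 in HSALR, with HSALR replicates 9 and 10 at 21546 and 22389 and the other 8 at up to 20125. Without these replicates Cdkn1a (limma adjusted p = 0.00414) and Ncam1 (limma adjusted p = 0.00651) still rose and Myog did not pass.

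Myog is also the nearest measured gene on one side of Mybph in the RefSeq gene order, with 4 genes between them. It read 92.6 to 472 in wild type, median 214, and 192 to 604 in HSALR, median 473, and 5 of 10 HSALR samples exceeded the wild-type maximum. The log2 fold was 0.85 ± 0.23 (limma adjusted p = 0.0332), beside 3.43 for Mybph, and the groups overlapped. The call was lost without any one of wild-type replicates 1, 3, 4, 6 and 7 or HSALR replicates 2, 3, 8, 9 and 10 (limma adjusted p = 0.052 to 0.065), and without HSALR replicates 9 and 10 together (0.093). For Ppfia4, next on that side, the log2 fold was 0.13 ± 0.15 (limma adjusted p = 0.676). On the other side the chitinase-like gene Chil1 and the chitinase gene Chit1 were below the filter on low signal, with medians of 48.1 and 18.3 in wild type and 52.1 and 27.1 in HSALR.

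Of 16 neighbours of the 4 members, 2 on each side of each, 9 passed the filter, and 2 rose and 0 fell, against 3.11% and 2.31% of all genes. Beside Myog this was Emc10, a subunit of the endoplasmic reticulum membrane complex and the second measured neighbour on one side of Mybpc2 (log2 fold 0.45 ± 0.09, limma adjusted p = 0.00368). The other 7, which were Ppfia4, Chpt1 and Arl1 near Mybpc1, Fam71e1 and Pold1 near Mybpc2, and Madd and Nr1h3 near Mybpc3, had log2 folds from -0.16 to 0.25 and did not pass. The 7 below the filter had log2 folds from -0.13 to 0.34.

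Fibre type genes were not called. None of 10 slow and none of 13 fast fibre genes passed in limma, with 0 slow genes, and 0 higher and 2 lower fast genes, at an unadjusted p under 0.05. After quantile normalization 3 fast genes fell, against 8.51% of all genes. The median log2 fold was -0.56 for the slow and 0.00 for the fast genes. Of markers of other cells, 2 of 9 macrophage genes rose, against 3.11% of all genes. These were Cd68, a lysosomal protein (log2 fold 1.00 ± 0.24, limma adjusted p = 0.0133), and Lgals3, a galectin (1.27 ± 0.35, limma adjusted p = 0.0347). Of the 9, 8 were higher at an unadjusted p under 0.05. The share of all genes with such a p was not counted, for this or the other lists. The count of macrophage genes that rose was 3 after quantile normalization, against 6.96% of all genes. It was 7 with the 3' to 5' ratio as a covariate and 7 without HSALR replicate 5. Calls over all tested probe sets also grew there, from 645 higher to 1705 and 1562. The macrophage count was 1 with no filter or without any one of the replicates named for Lgals3 below. Also 1 of 8 fibroblast genes (Pdgfra) rose, as did Adipoq, the one measured fat cell gene, and none of these lists had a gene that fell. None of 2 satellite cell, 3 Schwann cell and nerve, and 3 endothelial genes passed in limma, with 1, 0 and 0 at an unadjusted p under 0.05, all higher. Without HSALR replicates 9 and 10, Pdgfra did not pass (limma adjusted p = 0.0735) and the other 3 did. The call of Lgals3 was lost without any one of wild-type replicates 2 to 7 or HSALR replicates 2, 3 and 9 (limma adjusted p = 0.0511 to 0.0636), and that of Pdgfra without any one of wild-type replicates 3, 5 and 9 or HSALR replicates 3 and 9 (0.0507 to 0.058). The Mybph log2 fold was 3.54 without HSALR replicates 9 and 10, and 3.26 to 3.61 when 1 sample was left out. A link between these cell type genes and the Mybph fold was not tested.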

How the data were processed

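RNA of 9 wild-type and 10 HSALR EDL samples was labelled with biotin and hybridised to 1-colour arrays, per the labels' protocols. Signal intensities on a linear scale were deposited for 45101 probe sets, made with GCOS 1.4 according to the submitters' processing notes. For the algorithm and the scaling target, nothing is given in the sources used here. Genes were named from the platform annotation, updated through Entrez identifiers to RefSeq symbols.

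The 64 control probe sets were left out, values were used as log2(signal + 16), and the 22519 probe sets whose mean over the 19 samples reached 6.09, the median of such means, were tested. Groups were compared in R 4.3.3 by limma 3.58.1 (functions lmFit and eBayes, 2-sided, Benjamini-Hochberg over all tested probe sets). Genes of lists were read through their brightest probe set. Relations between members used quantile-normalized values within each group, with exact permutation tests for 9 samples and 100000 resamples for 10. The fits were tested on simulated data. Plots were made in Python 3.11.15 (matplotlib 3.10.9). The number of arrays limits the precision.

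Named genes were all members, up to 4 called genes per list by smallest p, the 5 genes most like each member and the 2 nearest measured neighbours on each side. The members and lists were chosen with earlier results of these data known. Alternatives were pseudocounts of 1 and 64, no filter, quantile or median scaling, a block for the replicate number, the 3' to 5' ratio as a covariate, and leaving out single samples or HSALR replicates 9 and 10.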

Additional observations from a re-analysis of the deposited data

How the results depend on the processing

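The Mybph fold kept its direction under all 27 alternatives, with log2 folds from 3.08 (pseudocount of 64) to 3.61 (without wild-type replicate 6). Calls over all probe sets moved more. Against 645 higher and 495 lower, there were 1457 and 1886 after quantile normalization, 1051 and 1294 after median centring, 1705 higher with the 3' to 5' ratio as a covariate, 429 higher without HSALR replicates 9 and 10, and 467 to 1562 higher when 1 sample was left out, the most without HSALR replicate 5. With the replicate number as a block and HSALR replicate 10 left out, 409 were higher and 307 lower. Samples that share a number are not paired in the labels, and the correlations of their deviations ran from -0.23 to 0.12. Quantile normalization was the alternative with 1 member called lower (Mybpc2).

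Of the 36 relations, 2 passed with arrays centred on their median and 0 in the other settings. Both were Mybpc1 with Mybpc2, with r = 0.92 in wild type and 0.83 in HSALR (adjusted p = 0.0461 each), against -0.09 and 0.09 after quantile normalization. As deposited r was 0.82 in wild type and 0.67 in HSALR (adjusted p = 0.151 and 0.389). Samples were left out of quantile-normalized values only, here and in the relations below. There r of Mybpc1 with Mybpc2 ran from -0.24 to 0.15 in wild type and from -0.13 to 0.32 in HSALR without 1 sample. It was -0.08 in HSALR without replicates 9 and 10. Mybpc1 with the slow fibre mean had r = 0.44 in wild type with centred arrays, -0.48 to 0.14 without 1 sample, and in HSALR 0.54 with centred arrays, -0.18 without replicates 9 and 10 and -0.11 to 0.39 without 1 sample. Mybph with the regeneration mean had r = 0.12 as deposited and 0.02 with centred arrays in wild type, and -0.59 to 0.24 without 1 sample. Fold signs turned for Arl1 (-0.03, -0.01 and -0.04 with quantile scaling, with centred arrays and without HSALR replicates 9 and 10) and Fam71e1 (-0.02 and -0.02 with the first 2, -0.01 to 0.06 without 1 sample). The calls of Adipoq and Camk2a were lost with the replicate block (limma adjusted p = 0.0557 and 0.0663) and with no filter (0.0517 and 0.076). With no filter those of Myog, Pdgfra and Lgals3 were lost as well (limma adjusted p = 0.0683, 0.0589 and 0.0717). The causes were not tested.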
